A study of Mus musculus with 8 samples.

Results

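The transcripts described here are 10 genes of the pathway by which IL-2 signals in T cells, taken by symbol from a list set for this pathway. They are the kinases *Jak1* and *Jak3*, the transcription factors *Stat5a*, *Stat5b* and *Stat3*, the feedback inhibitors *Cish*, *Socs1*, *Socs2* and *Socs3*, and the target kinase *Pim1*. All 10 symbols matched an Ensembl gene among the 55536 genes in the count files, and all 10 were among the 11189 genes that passed the filter on low counts. The cells sequenced were CD8+ T cells of OT-I mice, whose transgenic receptor recognises SIINFEKL, an ovalbumin peptide, on a Rag-1KO C57BL/6 background. Lymph node cells of both groups were activated with 100 nM peptide for 2 days, washed, and kept for 2 days in 20 ng/ml recombinant human IL-2. The GC7 group received 10 µM GC7 during the days in IL-2, and the Mock group received the acetic acid vehicle. GC7 is a spermidine analogue that blocks deoxyhypusine synthase (DHPS), the enzyme that starts hypusination of the translation factor eIF5a, and the study describes effects of it that do not depend on eIF5a. Each group had 4 libraries described as biological replicates. Neither the labels nor the methods say that they came from separate animals, so p-values measure the spread between these libraries only.

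IL-2 binds a receptor made of an alpha, a beta and a common gamma chain. The kinase JAK1 is attached to the beta chain and JAK3 to the gamma chain, and together they phosphorylate STAT5A and STAT5B, which then enter the nucleus and bind DNA at the palindrome TTCNNNGAA. STAT5 raises transcription of *Pim1*, a kinase that supports survival and growth, and of *Cish* and the *Socs* genes, whose proteins bind receptors or JAK kinases and dampen the signal. SOCS3 is best known for limiting receptors of the IL-6 family, which signal mainly through STAT3. The measurements are of mRNA, and phosphorylation and protein levels were not measured in these libraries.

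Values are CPM, the count of a gene relative to the library total after scaling with TMM factors, a change is the difference in log2 level, GC7 minus Mock, and a gene was called at a false discovery rate (FDR) under 0.01 by edgeR's quasi-likelihood F test, adjusted over all tested genes. The libraries held between 17528776 and 25284730 counts, and the counts of the 10 genes lay between 369 and 12838 per library. The CD8 T cell markers *Cd8a*, *Cd8b1*, *Cd3e*, *Cd3d* and *Trac* summed to between 1980 and 2400 CPM in Mock libraries and to between 2110 and 2250 CPM after GC7, but the single markers moved apart. *Cd8a* rose (676 to 740 CPM in Mock, 935 to 997 CPM after GC7, edgeR FDR 3.43e-05), while *Cd3e* (298 to 331 against 253 to 289 CPM, edgeR FDR 0.00789) and *Trac* (227 to 280 against 179 to 193 CPM, edgeR FDR 7.34e-04) fell. *Cd3d* (465 to 630 against 401 to 455 CPM, edgeR FDR 0.0250) and *Cd8b1* (319 to 416 against 290 to 317 CPM, edgeR FDR 0.0899) were lower in every GC7 library without passing the threshold, and the part of these shifts in the results was not tested. *Cd4* stayed at or under 0.407 CPM and the sum of the 2 NK cell markers at or under 0.724 CPM in every library. The 6 myeloid and dendritic cell markers summed to between 0.612 and 0.847 CPM in Mock and between 0.242 and 0.61 CPM in GC7 libraries. Of the 4 B cell markers, *Ms4a1* was at 0 in all libraries, and the sum, mostly *Cd79b*, was 6.98 to 10.1 CPM in Mock libraries and 4.61 to 5.9 CPM after GC7.

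Within each group 1 library stood apart from the rest over all tested genes. By chi-square per gene, pairs of Mock libraries with replicate 2 differed by 32.2 to 35.6 and the other Mock pairs by 4.52 to 8.76, and pairs of GC7 libraries with replicate 3 differed by 13.97 to 22.9 and the other GC7 pairs by 2.60 to 6.69. Mock replicate 2 was the lowest Mock library for *Jak1*, *Stat5a*, *Stat5b*, *Stat3* and *Socs2* and the highest for *Socs1* and *Socs3*. GC7 replicate 3 was the lowest GC7 library for *Jak1*, *Cish*, *Socs1* and *Socs2* and the highest for *Jak3*, *Stat5b* and *Socs3*.

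Most of the 10 transcripts were lower after GC7. Of the 10 genes, 9 fell, 0 rose and 1, *Stat5a*, was not called. Over all tested genes, 23.5% fell, 23% rose and 46.6% were called in either direction. The 10 genes were chosen with earlier results of these data known, so their contrast with all tested genes is not independent of the data. The Mock and GC7 libraries did not overlap in CPM for any of the 10, with GC7 lower in 9, and 27.5% of all tested genes had such groups in the lower direction. *Socs3* fell 3.15-fold and was the only one of the 10 to pass a 2-fold change, a threshold that 5.31% of all tested genes passed in the lower direction, 3.17% in the higher and 8.48% in either. The other 8 fell by 19.1% to 34.2%. The median change of the 10 genes was -0.37, against 0.02 for all tested genes, whose middle 50% lay between -0.27 and 0.31. Without Mock replicate 2, and likewise without GC7 replicate 3, 9 of the 10 genes were called lower and 0 higher. Over all left-out libraries the number called lower ranged from 7 to 9. In bulk RNA, fewer cells of a type and less RNA per cell cannot be told apart. With library totals in place of TMM factors, 6 of the 10 genes were called lower, and the share of all calls that were lower was 38.1% in place of 50.5%.

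**Figure D1:**
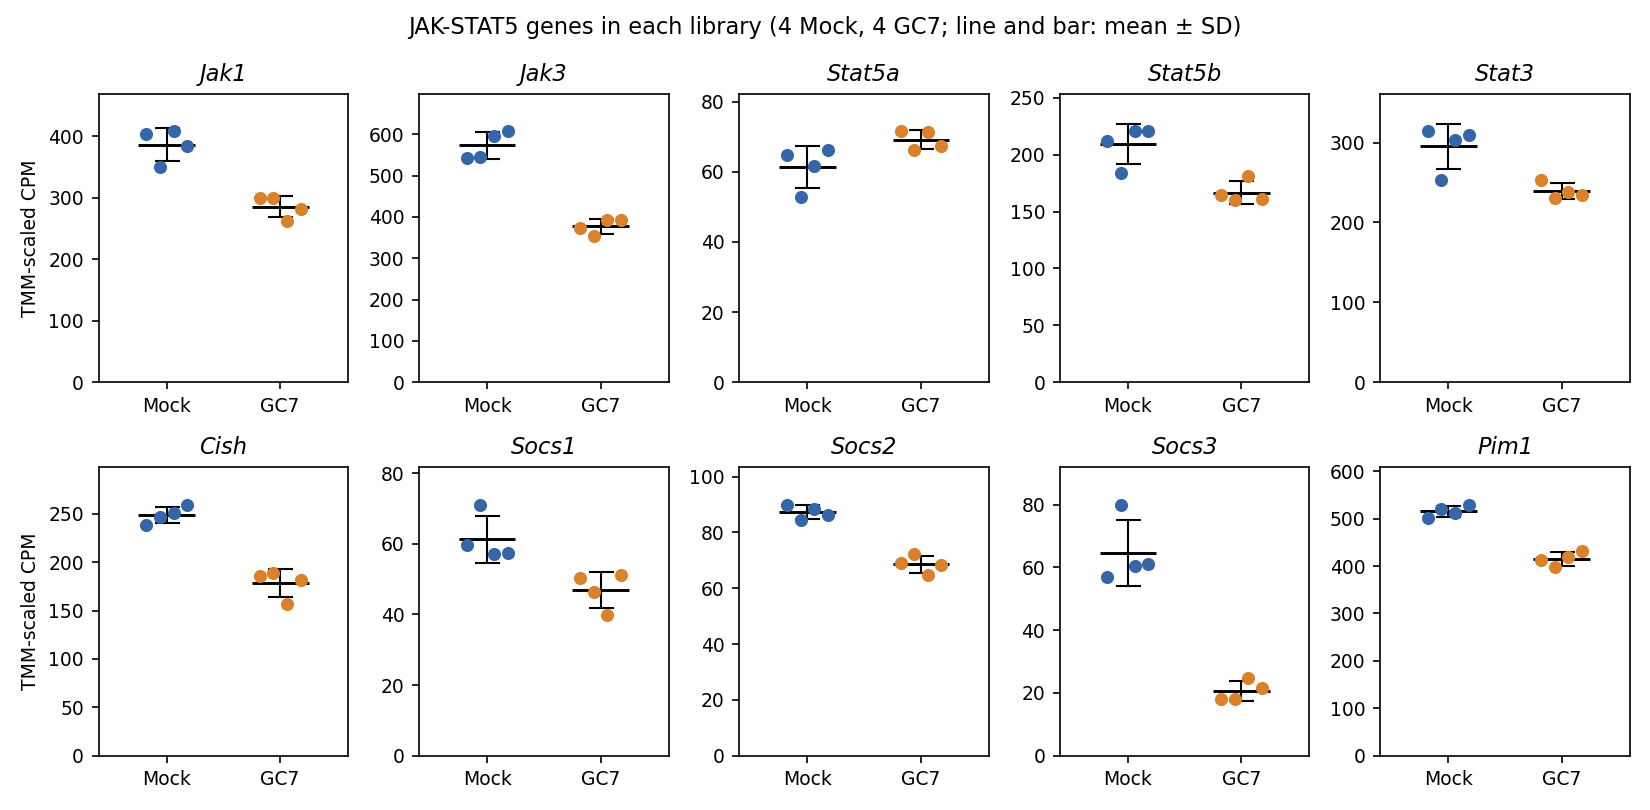
TMM-scaled CPM (linear axes starting at 0, one panel per gene) of the 10 genes in the 4 Mock (blue) and 4 GC7 (orange) libraries, with the mean as a line and the SD as a bar. In 9 panels every GC7 library lies below every Mock library, and in the *Stat5a* panel every GC7 library lies above, with the lowest GC7 library at 66.22 and the highest Mock library at 66.20 CPM.

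Both receptor-bound kinases fell. *Jak1* (ENSMUSG00000028530, chr4:101152367-101265282, minus strand) encodes the kinase on the IL-2 receptor beta chain. It was at 403, 349, 408 and 384 CPM in Mock libraries 1 to 4 and at 299, 299, 262 and 281 CPM in GC7 libraries 1 to 4. The groups did not overlap, and the lowest Mock library was replicate 2. The change was -0.44 ± 0.07 (SE, 4 libraries a group; edgeR FDR 2.06e-04), from 386 ± 26.7 to 285 ± 17.6 CPM (SD, n = 4). Reads of *Raver2*, which overlaps *Jak1* on the opposite strand, numbered 1.98% of the *Jak1* reads.

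*Jak3* (ENSMUSG00000031805, chr8:71676296-71690575, plus strand) encodes the kinase on the common gamma chain, which the receptors for IL-2, IL-4, IL-7, IL-9, IL-15 and IL-21 share. Its levels were 544, 546, 596 and 608 CPM in the Mock libraries and 373, 353, 391.7 and 391.5 CPM in the GC7 libraries. No GC7 library came near the lowest Mock library. *Jak3* fell by 34.2%, a change of -0.60 ± 0.07 (edgeR FDR 8.78e-06), and after *Socs3* this was the most negative change of the 10. *Insl3*, a hormone gene that overlaps *Jak3* on the same strand and shares 404 identical transcript bases with it, had 1.48% as many reads as *Jak3*. The ratio of *Jak1* to *Jak3* counts within a Mock library lay between 0.631 and 0.742, and within a GC7 library between 0.670 and 0.848. These ranges overlapped, and the log2 ratio differed by 0.17 (two-sided exact permutation test, p = 0.143, adjusted p = 0.143 over 4 ratios).

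*Stat5a*, *Stat5b* and *Stat3* lie next to each other on chromosome 11, where *Stat5b* and *Stat3* fell and *Stat5a* was not called. *Stat5b* (ENSMUSG00000020919, chr11:100780731-100850724, minus strand) and *Stat5a* (ENSMUSG00000004043, chr11:100859351-100885169, plus strand) encode closely related factors, and their annotated spans are 8.63 kb apart. *Stat3* (ENSMUSG00000004040, chr11:100885098-100939540, minus strand) overlaps the end of *Stat5a* by 0.071 kb on the opposite strand. *Stat5a* and *Stat5b* transcripts were 90.9% identical over an alignment of 2332 bases, and their longest identical run was 324 bases of coding sequence. The first 120 bases of that run are printed because a read that lies inside it matches both genes.
Stat5a and Stat5b: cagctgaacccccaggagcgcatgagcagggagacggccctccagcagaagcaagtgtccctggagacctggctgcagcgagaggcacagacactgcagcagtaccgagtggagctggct
These bases, from the GENCODE transcripts, span 2 exons in each gene, at chr11:100874023-100874347 (plus strand) in *Stat5a* and at chr11:100798377-100798701 (minus strand) in *Stat5b* (GRCm38). Of all 50-base windows, 15.8% in the longest coding *Stat5a* transcript and 11.8% in that of *Stat5b* occur in the other. How reads with several matches, and strand, were treated in counting is not given in the sources used here, so values of *Stat5a* and *Stat5b* carry that uncertainty, and so do reads over the shared end of *Stat5a* and *Stat3*.

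*Stat5b*, the STAT5 transcript with the higher level per kb of exon, was at 212, 184, 220 and 221 CPM in Mock and at 165, 160, 181 and 161 CPM in GC7 libraries. The groups did not overlap, although Mock replicate 2 and GC7 replicate 3 lay close together. *Stat5b* fell by 0.33 ± 0.07 on the log2 scale (edgeR FDR 0.00193). With library totals as the scaling, the change was -0.24 and was not called (edgeR FDR 0.0221).

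*Stat5a* was at 64.7, 52.9, 61.6 and 66.20 CPM in Mock and at 71.6, 66.22, 71.3 and 67.2 CPM in GC7 libraries. The lowest GC7 library lay barely above the highest Mock library, and 28.1% of all tested genes had groups that did not overlap in this direction. The estimate was 0.17 ± 0.08, with a 95% confidence interval from 0.01 to 0.34, and it was not called (edgeR FDR 0.0667). Leaving out each library in turn gave estimates between 0.11 and 0.21, with no call.

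The balance of the STAT5 transcripts was compared within each library, which needs no scaling. *Stat5a* made up 23.4%, 22.3%, 21.8% and 23.1% of the STAT5 counts in Mock libraries 1 to 4 and 30.3%, 29.2%, 28.2% and 29.5% in GC7 libraries 1 to 4. The shares did not overlap, and every GC7 library had more *Stat5a* for each *Stat5b* count than any Mock library. The log2 ratio of *Stat5a* to *Stat5b* was higher by 0.50 in GC7 (two-sided exact permutation test, p = 0.0286, the smallest that 4 against 4 libraries allow, and adjusted p = 0.0571 over 4 ratios). The summed STAT5 level was 276.6, 237.1, 282.1 and 286.8 CPM in Mock libraries 1 to 4. In GC7 libraries 1 to 4 it was 236.5, 226.4, 252.3 and 227.9 CPM. The groups overlapped only through Mock replicate 2, which lay below GC7 replicate 3, and every other Mock library lay above every GC7 library.

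*Stat3*, which encodes the factor used by the IL-6, IL-10 and IL-21 receptors, was at 314, 253, 304 and 310 CPM in Mock and at 253, 230, 239 and 234 CPM in GC7 libraries. Mock replicate 2 was nearly as low as GC7 replicate 1, and the other 3 Mock libraries stood apart from all GC7 libraries. *Stat3* fell by 19.1%, a change of -0.31 ± 0.07 (edgeR FDR 0.00373), the smallest fall among the 9 called genes. The call did not hold without Mock replicate 1 (-0.28, FDR 0.0131), Mock replicate 3 (-0.29, FDR 0.0129), Mock replicate 4 (-0.28, FDR 0.0149), GC7 replicate 2 (-0.29, FDR 0.0125) or GC7 replicate 4 (-0.30, FDR 0.013), all by edgeR, nor with library totals (-0.21, edgeR FDR 0.0413).

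**Figure D2:**
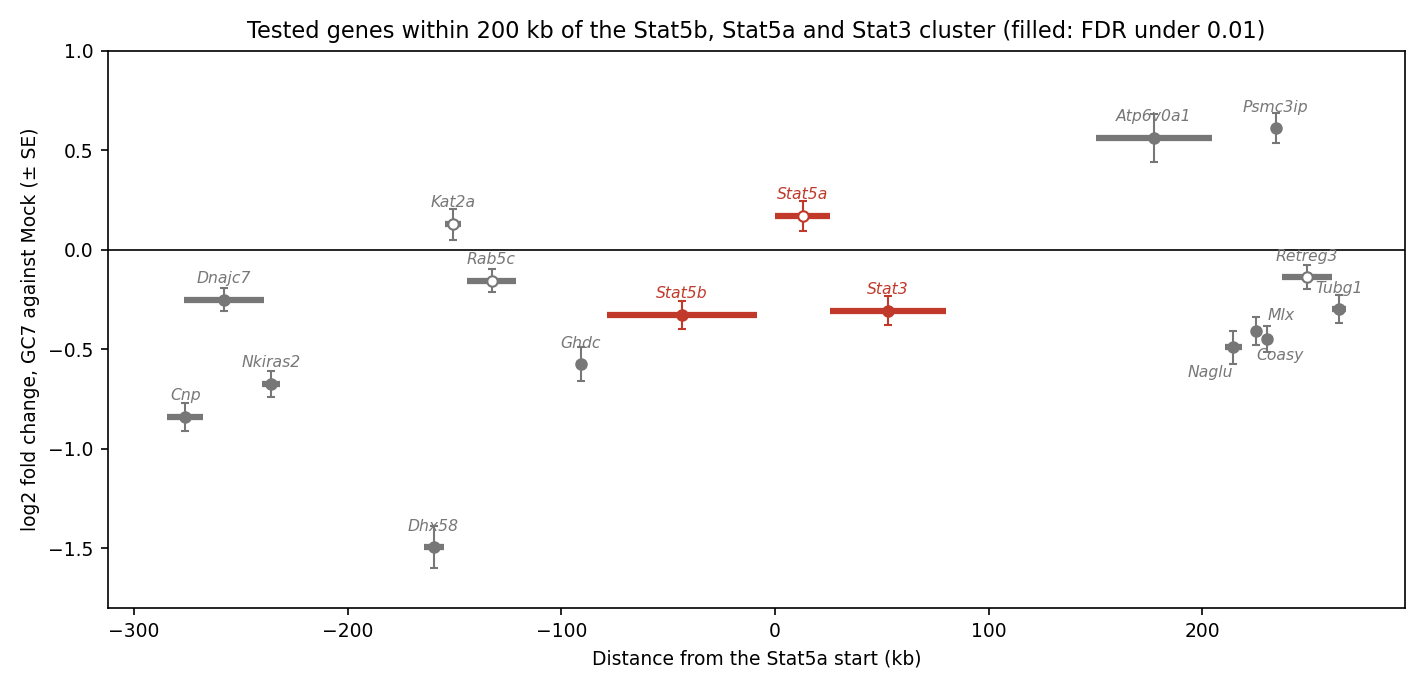
Change in mRNA (log2 fold change, GC7 against Mock, ± SE) of the tested genes within 200 kb of the *Stat5b*, *Stat5a* and *Stat3* cluster, placed by distance in kb from the *Stat5a* start, with horizontal bars for the gene bodies and filled points for an FDR under 0.01. *Stat5b* (-0.33) and *Stat3* (-0.31) lie below zero on both sides of *Stat5a* (0.17, open point), and 11 of the 17 genes fell.

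The window of 200 kb on either side of the cluster held 17 tested genes, of which 11 fell, 2 rose and 4 were not called, where 23.5% of all tested genes fell and 23% rose. Without the STAT genes, 9 of the other 14 fell, 2 rose and 3 were not called. *Dhx58*, which encodes the RIG-I family protein LGP2, had the most negative change among them (-1.50 ± 0.11, edgeR FDR 1.88e-07). The 2 that rose were *Psmc3ip* (0.61 ± 0.08, edgeR FDR 2.37e-05), a recombination factor, and *Atp6v0a1* (0.56 ± 0.12, edgeR FDR 0.00176), a subunit of the vacuolar proton pump. These 3 neighbours were chosen after their values were seen.

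All 4 feedback inhibitors fell, and one of them, *Socs3*, fell far more than the rest. *Cish* (ENSMUSG00000032578, chr9:107296026-107302784, plus strand) encodes an SH2 protein that STAT5 induces and that binds cytokine receptors. It was at 239, 247, 250 and 259 CPM in Mock and at 186, 189, 157 and 182 CPM in GC7 libraries. The Mock libraries lay close together and GC7 replicate 3 was the lowest of all 8 libraries. *Cish* fell by 0.48 ± 0.07 on the log2 scale (edgeR FDR 7.97e-05), from 249 ± 8.59 to 178 ± 14.8 CPM (SD, n = 4).

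*Cish* and *Socs3* were the members whose promoter windows held the STAT5 palindrome TTCNNNGAA. The windows, from RefSeq on GRCm38.p6, ran from 250 bases before to 50 bases after a start site, and 12 of them covered 9 of the 10 genes, with none matched for *Socs2*. The palindrome reads the same on both strands, so a search of one strand covered both. The *Cish* window held 2 matches, shown in capitals in 30 bases around the RefSeq start, and the *Socs3* window held 1, shown in capitals in the 250 bases before its start.
Cish: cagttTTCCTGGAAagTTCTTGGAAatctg
Socs3: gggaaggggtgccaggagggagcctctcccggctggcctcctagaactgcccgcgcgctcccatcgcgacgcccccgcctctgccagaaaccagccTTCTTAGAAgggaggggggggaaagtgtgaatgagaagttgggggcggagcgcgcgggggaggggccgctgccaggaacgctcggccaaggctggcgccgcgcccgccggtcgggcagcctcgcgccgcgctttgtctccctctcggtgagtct
The *Cish* bases lie at chr9:107296654-107296683 on the plus strand, inside the annotated span of *Cish*. The matches begin 1 and 12 bases into the RefSeq transcript. The *Socs3* bases lie at chr11:117969367-117969616 on the minus strand, also inside the annotated span of the gene. The match begins 154 bases before the RefSeq start. Of all 32851 windows, 8.3% held a match and 0.457% held 2 or more. Among tested genes the share of genes with a match was 8.57% for those that fell, 8.42% for those that rose and 8.1% for those not called, so these letters were about as common in each. A match is a string of letters in this window, and binding was not measured.

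*Socs1* (ENSMUSG00000038037, chr16:10782240-10785536, minus strand) encodes an inhibitor that binds JAK kinases directly. Its levels were 59.6, 71.1, 57.0 and 57.4 CPM in Mock and 50.3, 46.3, 40.0 and 51.2 CPM in GC7 libraries. Mock replicate 2 was the highest of all, and the other Mock libraries were only slightly above the upper GC7 libraries. *Socs1* fell by 0.38 ± 0.09 on the log2 scale (edgeR FDR 0.00398). The call did not hold without GC7 replicate 2 (-0.38, edgeR FDR 0.0119) or with library totals (-0.29, edgeR FDR 0.0155).

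*Socs2* (ENSMUSG00000020027, chr10:95385362-95417180, minus strand), a STAT5-induced inhibitor best known for restraining growth hormone signalling, was at 89.9, 84.4, 88.4 and 86.4 CPM in Mock and at 69.0, 72.2, 64.6 and 68.2 CPM in GC7 libraries. The libraries of each group lay within a few CPM of each other and the groups were well apart. *Socs2* fell by 0.35 ± 0.06 on the log2 scale (edgeR FDR 2.54e-04). The transcripts *Gm9847* and *Gm8000* are near-identical to *Socs2* over 599 and 595 bases, and with 212 and 34 counts in all libraries together neither was tested. The ratio of *Cish* to *Socs2* counts reached from 2.65 to 3.003 in Mock libraries and from 2.42 to 2.69 after GC7, and the log2 ratio differed by -0.13 (two-sided exact permutation test, p = 0.0857, adjusted p = 0.114 over 4 ratios).

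*Socs3* (ENSMUSG00000053113, chr11:117966079-117970047, minus strand) was at 57.0, 80.0, 60.4 and 61.1 CPM in Mock and at 17.96, 18.07, 24.7 and 21.6 CPM in GC7 libraries. Mock replicate 2 was the highest, and the highest GC7 library was still far below every Mock library. *Socs3* fell by 1.65 ± 0.13 on the log2 scale (95% confidence interval of the change -1.93 to -1.38, edgeR FDR 3.90e-07), from 64.6 ± 10.4 to 20.6 ± 3.21 CPM (SD, n = 4). Only 2.21% of all tested genes had a change as negative or more so. Leaving out each library in turn gave changes between -1.75 and -1.53, and each passed the 2-fold threshold.

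*Socs1* and *Socs3* were about equal in Mock counts and unequal after GC7. The ratio of *Socs1* to *Socs3* counts was 1.046, 0.889, 0.944 and 0.939 in Mock libraries 1 to 4 and 2.80, 2.56, 1.62 and 2.37 in GC7 libraries 1 to 4. Every GC7 library lay above every Mock library, and GC7 replicate 3 was the nearest to Mock. The log2 ratio was higher by 1.27 in GC7 (two-sided exact permutation test, p = 0.0286, the smallest possible, and adjusted p = 0.0571 over 4 ratios).

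**Figure D3:**
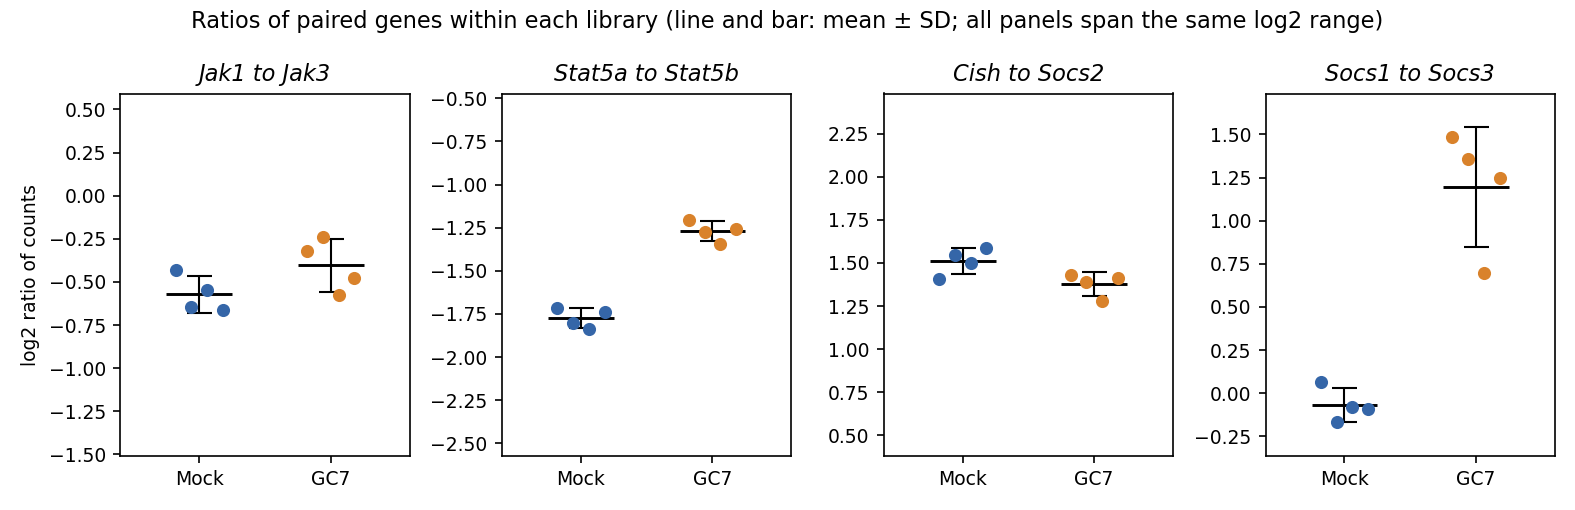
Log2 ratio of the counts of 4 gene pairs within each library, Mock (blue) and GC7 (orange), with mean and SD, each panel spanning the same log2 range. *Stat5a* to *Stat5b* (higher by 0.50) and *Socs1* to *Socs3* (higher by 1.27) do not overlap between the groups, and *Jak1* to *Jak3* and *Cish* to *Socs2* overlap between them.

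*Pim1* (ENSMUSG00000024014, chr17:29490753-29496112, plus strand), a serine/threonine kinase gene that STAT5 turns on, was at 502, 520, 512 and 529 CPM in Mock and at 412, 397, 418 and 431 CPM in GC7 libraries. The spread within each group was small and the groups were clearly apart. *Pim1* fell by 19.7%, a change of -0.32 ± 0.06 (edgeR FDR 5.00e-04). Its percent change was close to that of *Stat3*, while its Mock libraries varied by 2.28% of their mean (coefficient of variation) against 9.57% for *Stat3*.

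**Figure D4:**
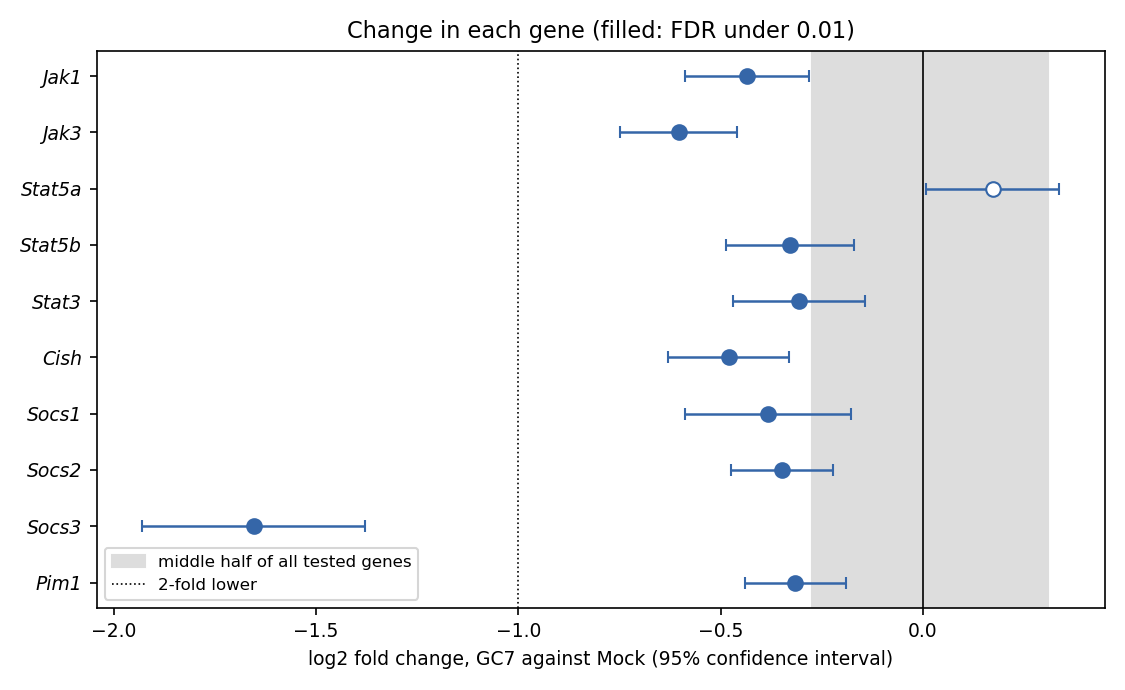
Log2 fold change, GC7 against Mock, of each gene with its 95% confidence interval, beside the middle 50% of all tested genes (grey, -0.27 to 0.31) and the 2-fold line (dotted). *Socs3* (-1.65) is alone beyond the 2-fold line, 8 genes lie between -0.60 and -0.31, and *Stat5a* (0.17, open) was not called.

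The order of the transcripts was compared on CPM per kb of exon, where the length is that of all annotated exons of a gene joined together. It was 6419 bases for *Cish* and 7133 bases for *Stat5a*, for example. Such a length can exceed that of the transcript expressed, so the order of the genes carries this uncertainty. In Mock libraries *Pim1* was the highest at 153 ± 3.49 CPM per kb (SD, n = 4), followed by *Jak3* at 107 ± 6.21 and *Jak1* at 53.4 ± 3.69, and these levels did not overlap. *Cish* (38.8 ± 1.34) and *Stat5b* (37.8 ± 3.11) overlapped, *Stat3* (31.0 ± 2.97) overlapped *Socs3* (22.4 ± 3.60), and *Socs3* overlapped *Socs1* (21.1 ± 2.29). The lowest were *Socs2* at 9.16 ± 0.252 and *Stat5a* at 8.60 ± 0.834 CPM per kb, which also overlapped. In GC7 libraries the first 3 places were the same, with *Pim1* at 123, *Jak3* at 70.5 and *Jak1* at 39.5 CPM per kb. *Stat5b* (30.1), *Cish* (27.8) and *Stat3* (25.1) then followed with overlapping neighbours, and *Socs1* was at 16.1 and *Stat5a* at 9.68 CPM per kb. *Socs3* at 7.12 CPM per kb overlapped *Socs2* at 7.19, so it stood seventh in Mock and last, level with *Socs2*, in GC7 libraries.

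The further lists of the pathway are read against all tested genes, of which 23.5% fell, 23% rose and 46.6% were called in either direction. Of 5 other JAK and STAT genes taken up here, 2 fell, 1 rose and 2 were not called (median change -0.23). *Jak2*, the kinase of many growth factor receptors, rose by 0.31 ± 0.07 (edgeR FDR 0.00313), from 67.3 ± 5.39 to 83.6 ± 5.82 CPM (SD, n = 4), and without Mock replicate 1 or without GC7 replicate 4 the number that rose was 0. *Stat2*, a factor of the type I interferon response, changed by -0.39 ± 0.08 (edgeR FDR 0.00185), from 44.3 ± 2.97 to 33.9 ± 3.55 CPM, and *Stat6*, the IL-4 factor, by -0.35 ± 0.06 (edgeR FDR 2.17e-04), from 187 ± 1.06 to 147 ± 8.13 CPM.

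Of 15 other inhibitors of the pathway, 3 fell, 5 rose and 7 were not called, with a median change of 0.14, which is not far from the 23.5% that fell and 23% that rose over all tested genes. *Sh2b3*, an adaptor that restrains JAK2 signalling, rose by 1.08 ± 0.07 (edgeR FDR 7.98e-08), from 18.3 ± 0.578 to 38.5 ± 2.05 CPM (SD, n = 4). *Socs4* rose by 0.68 ± 0.10 (edgeR FDR 1.15e-04), and *Socs7*, *Socs5* and *Ptpn11*, named after their values were seen, rose by 0.61, 0.59 and 0.36. *Ptpn6*, the phosphatase SHP-1, changed by -0.68 ± 0.08 (edgeR FDR 9.24e-06), from 405 ± 26.6 to 253 ± 20.9 CPM (SD, n = 4). *Ptpn2*, a phosphatase of JAK1, JAK3 and STAT5, changed by -0.60 ± 0.06 (edgeR FDR 5.42e-06), and *Pias4*, also named after its value was seen, by -0.37. Within the SOCS family *Cish*, *Socs1*, *Socs2* and *Socs3* fell, *Socs4*, *Socs5* and *Socs7* rose, and *Socs6* was at 20.3 CPM in Mock and 20.6 CPM in GC7 libraries and was not called.

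At the receptors, the beta chain that recruits JAK1 fell and the IL-21 chain rose. Of the 8 chains of the common gamma chain family, 7 were tested (not *Il9r*), of which 1 fell, 2 rose and 4 were not called, with a median change of 0.00. These counts are not far from the 23.5% that fell and 23% that rose over all tested genes. *Il2rb*, shared by the IL-2 and IL-15 receptors, was at 1596, 1497, 1475 and 1531 CPM in Mock and at 962, 937, 600 and 821 CPM in GC7 libraries. GC7 replicate 3 was the lowest by some distance, and no GC7 library approached Mock. *Il2rb* changed by -0.88 ± 0.12 (edgeR FDR 6.85e-05). *Il21r* rose by 1.12 ± 0.08 (edgeR FDR 2.40e-07), from 115 ± 2.71 to 251 ± 28.9 CPM (SD, n = 4), and *Il15ra*, the high-affinity IL-15 chain, rose by 0.68 ± 0.10 (edgeR FDR 8.45e-05). The count of chains that fell ranged from 1 to 3 when each library was left out, with 3 without Mock replicate 2 and 2 without GC7 replicate 3, and a fit blocked on replicate number gave 2.

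Of 6 receptor chains that signal through STAT3, 1 fell, 3 rose and 2 were not called, with a median change of 0.25. The shares over all tested genes were 23.5% that fell and 23% that rose. Besides *Il21r*, which is on both receptor lists, *Il6st*, the shared gp130 chain of the IL-6 family, rose by 0.72 ± 0.11 (edgeR FDR 1.37e-04), and *Il27ra*, named after its value was seen, rose by 0.49. *Il10ra* changed by -0.55 ± 0.08 (edgeR FDR 1.15e-04). Of 8 cytokine ligand genes *Il10* alone passed the filter, and it did so only through the Mock libraries, where it was high. All its GC7 libraries were under the 3 CPM of the filter. It fell from 8.49 ± 0.755 to 1.03 ± 0.254 CPM (SD, n = 4), a change of -3.01 ± 0.17 (edgeR FDR 2.65e-08). *Il2* had 25 counts over the 4 Mock and 18 over the 4 GC7 libraries, and *Il7* and *Il9* were at 0 in all 8. The IL-2 added to the cultures was recombinant human protein and leaves no counts in these files.

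Of the other genes that STAT5 is known to raise, more fell than rose, with survival and cell cycle genes on both sides. Of 11 tested, 7 fell, 3 rose and 1, *Il2ra*, was not called (-0.25 ± 0.09, edgeR FDR 0.0382), with a median change of -0.60. Among all tested genes 23.5% fell and 23% rose. With library totals 5 of the 11 fell, and with each library left out 6 to 8 fell and 2 to 3 rose. A fit blocked on replicate number gave 2 that rose. *Prf1*, the pore-forming protein of cytotoxic granules, was at 90.9, 75.5, 78.3 and 77.9 CPM in Mock and at 37.1, 30.7, 19.1 and 29.9 CPM in GC7 libraries. The groups were far apart, GC7 replicate 3 was again the lowest, and the change was -1.46 ± 0.15 (edgeR FDR 5.30e-06). *Osm*, the cytokine oncostatin M, changed by -1.14 ± 0.08 (edgeR FDR 1.33e-07), from 48.2 ± 3.70 to 22.0 ± 1.26 CPM (SD, n = 4). *Ccnd2*, a D-type cyclin, rose by 0.77 ± 0.09 (edgeR FDR 2.05e-05), and *Bcl2l1*, which encodes the survival protein BCL-XL, rose by 0.72 ± 0.05 (edgeR FDR 3.38e-07). *Bcl2*, a related survival gene named after its value was seen, rose by 0.34 ± 0.09 (edgeR FDR 0.00562). Among these, *Ccnd3* changed by -0.71 and *Mcl1* by -0.27, so the cyclin D genes and the anti-apoptotic genes each had members past the threshold in both directions, and these 2 were also named after their values were seen.

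Both other PIM kinases fell with *Pim1*, where 23.5% of all tested genes fell. *Pim2* went from 388 ± 25.7 to 256 ± 19.8 CPM (SD, n = 4), a change of -0.60 ± 0.07 (edgeR FDR 2.27e-05). *Pim3* went from 79.5 ± 4.70 to 63.1 ± 7.48 CPM, a change of -0.33 ± 0.08 (edgeR FDR 0.00489). The number of these that fell was 1 without Mock replicate 1, without GC7 replicate 2 or with library totals.

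**Figure D5:**
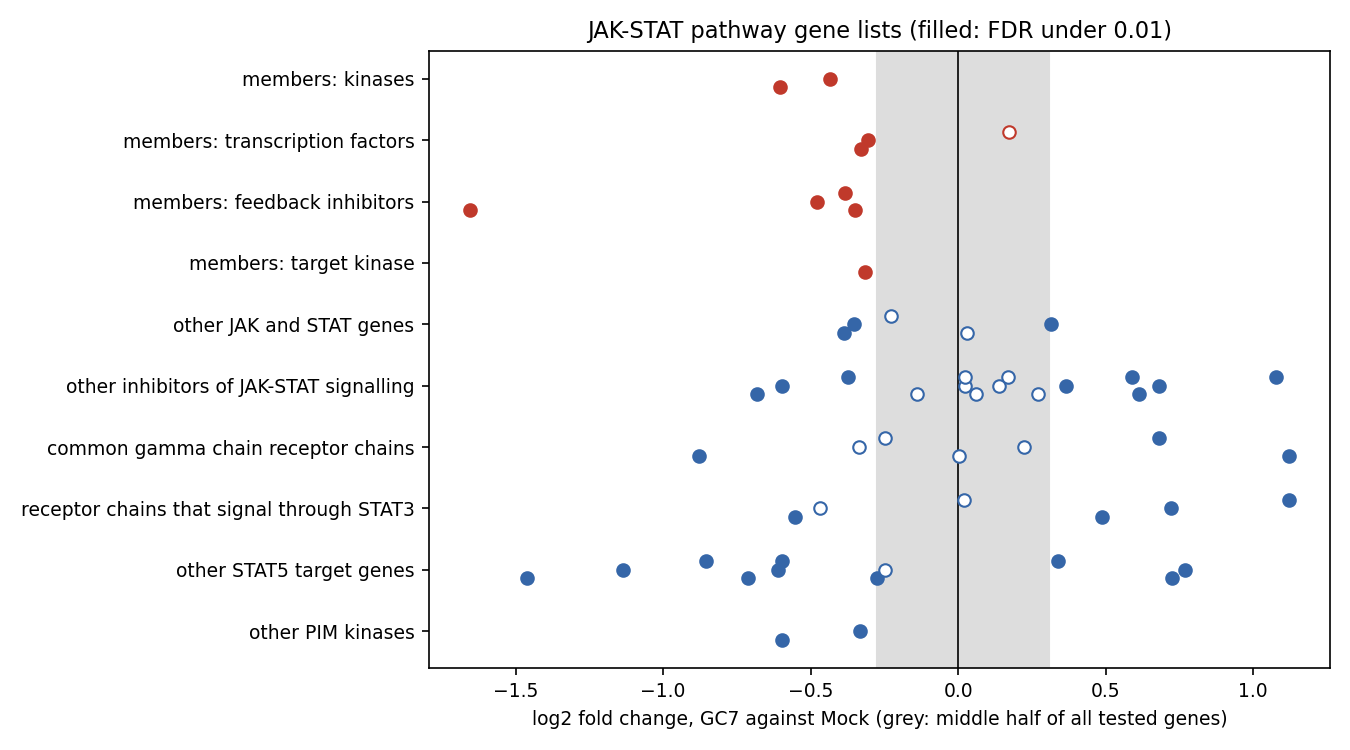
Log2 fold change, GC7 against Mock, of each tested gene in the 4 groups of members (red) and in 6 further pathway lists (blue), filled at an FDR under 0.01, with the middle 50% of all tested genes in grey. The members lie on the lower side apart from *Stat5a*, the other inhibitors (median 0.14) and the STAT3 receptor chains (median 0.25) reach both sides, and the other STAT5 targets (median -0.60) include *Ccnd2* (0.77) and *Bcl2l1* (0.72) on the higher side.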

How the data were processed

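Messenger RNA of 4 Mock and 4 GC7 cultures was sequenced, and groups were taken from the sample titles. The authors trimmed paired reads with Cutadapt, aligned them to GRCm38 with STAR, ran featureCounts on Ensembl genes, and deposited raw counts for each library without normalisation. The strand and multiple-match settings are not given in the sources used here. Gene names and positions came from GENCODE M21, which matched all 55536 gene identifiers in the files. The 11189 genes above 3 CPM (52.6 to 75.9 counts) in 4 or more libraries were tested with edgeR (version 4.0.16, R version 4.3.3) by its quasi-likelihood F test, with TMM factors and no term besides group, and p-values were adjusted by Benjamini-Hochberg. Genes past an FDR of 0.01 were called. TMM scaling hides any shift that most mRNAs share. No pair of libraries of a group agreed within sampling noise (chi-square per gene from 2.6 to 35.6).

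In simulated counts for the same 11189 genes and this comparison, 50 genes were changed at each size and all others were left unchanged. Calls were made for 6 of 50 with a log2 change of 0.3, 40 of 50 with 0.5, 48 of 50 with 1 and 50 of 50 with 1.6. Among the unchanged genes 3 were called. Log2 ratios of 4 gene pairs were compared with two-sided exact permutation tests, adjusted over the 4, in SciPy (version 1.17.1). Near-identical copies were matches of at least 200 bases and 90% identity by BLAST (version 2.17.0). Alternatives were RLE factors, library totals, no filter, filterByExpr, DESeq2 (version 1.42.0), limma-voom (limma version 3.58.1), the replicate number as a block, and each library left out. Named genes were the 10 members and, in each other list, up to 2 with the largest rise and up to 2 with the largest fall past the FDR. The members and lists were chosen with earlier results of these data known. Counts come from reads without molecular identifiers. A gene of the lists is not reported here.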

Additional observations from a re-analysis of the deposited data

How the results depend on the processing

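Over 15 alternatives, 141 of 150 fold changes of the 10 genes kept their direction and their side of the threshold, 9 lost the call and 0 changed sign. With library totals, *Stat5b* (-0.24, edgeR FDR 0.0221), *Stat3* (-0.21, 0.0413) and *Socs1* (-0.29, 0.0155) were not called, which left 6 of the 10 lower, and over all genes 2056 fell and 3346 rose in place of 2635 and 2579. The other 6 losses came from leaving out a library, 5 for *Stat3* and 1 for *Socs1*, with between 7 and 9 of the 10 lower, and 1 past a 2-fold fall each time. *Stat5a* was at 0.26 (edgeR FDR 0.0167) with library totals. Library totals left 1 of the other JAK and STAT genes and 1 of the other PIM kinases lower. Common gamma chain receptor chains that fell numbered 2 without a filter, 2 with the replicate block and 1 to 3 with each library left out. Leaving out each library gave 0 to 1 other JAK and STAT genes that rose (0 without Mock replicate 1 and without GC7 replicate 4), and 1 to 2 other PIM kinases that fell. The cause was not tested.

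The replicate numbers are shared by the groups, but same-numbered libraries did not deviate together (r = 0.272, -0.116, 0.202 and -0.183, against -0.31 to 0.416 for other pairs), so the numbers were not taken as pairs. In the replicate block fit the same 9 of the 10 genes were lower, no member's call changed, and 2485 genes fell and 2382 rose over all genes. Left-out libraries gave log2 ratio differences of 0.48 to 0.53 for *Stat5a* to *Stat5b*, 1.17 to 1.43 for *Socs1* to *Socs3*, 0.11 to 0.23 for *Jak1* to *Jak3* and -0.17 to -0.10 for *Cish* to *Socs2*. In simulated counts with 4 libraries a group, 6 of 50 genes with a log2 change of 0.3 were called. Far fewer genes were changed there than the 46.6% called in the real counts, and their levels were not matched to *Stat3*. That number therefore does not measure how often a change like that of *Stat3* would be called. Without Mock replicate 2, the library that stood apart most, the changes were -0.30 for *Socs1*, -1.53 for *Socs3* and -0.37 for *Stat3*, and without GC7 replicate 3 they were -0.32, -1.75 and -0.31. None of 30 groups held a library past Dixon's critical value.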
